A study of Mus musculus with 4 samples.

Results

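Semaphorins, plexins and neuropilins are the ligands, receptors and co-receptors of one guidance system. They were followed in the mouse breast cancer line Py2T, which goes through an epithelial to mesenchymal transition when given TGFβ. All 31 listed genes were on the array, 20 of them semaphorins and 11 plexins or neuropilins, out of 19938 genes measured. Each gene was read through the probe set that the array's gene table assigns to it alone. For genes with more than 1 such probe set the brightest over all arrays was taken. Total RNA was amplified and measured on 4 Affymetrix arrays. Of these, 2 came from untreated cells and 2 from cells kept in 2 ng/ml TGFβ for 5 days, and cells of both groups grew in DMEM with 10% FCS. The series compared treated with untreated cells, and the study's title sets Tead2 beside Yap, Taz, zyxin and this transition. Both groups are cultures of a single line, and the labels call the samples biological replicates without saying how the cultures were kept apart. P-values therefore measure the spread between these samples, which may be technical.

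Semaphorins share a large extracellular sema domain. Class 3 members are secreted, classes 4, 5 and 6 are transmembrane proteins, and Sema7a is anchored to the membrane by a lipid. Plexins bind them through a sema domain of their own and carry an intracellular GTPase-activating domain that acts on small GTPases of the Ras and Rap type. Most class 3 semaphorins bind a neuropilin, which pairs with an A-type plexin to signal, and neuropilins also bind VEGF. The system was first studied in growing axons, and it also steers epithelial cells, vessels and tumour cells.

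Values are RMA log2 values, on which a difference of 1 is a 2-fold change. Array medians over all probe sets lay between 6.742 and 6.756. No detection calls come with the values, so the 95th percentile of the means of 1178 olfactory and vomeronasal receptor genes, 5.991, served as a background reference. Of 7 mammary epithelial markers 0 rose and 4 fell, and their summed linear level was 42700 and 44090 in untreated arrays against 35330 and 35920 after TGFβ. Krt8 (13.52 and 13.57) and Krt18 (13.34 and 13.23) were far above background as untreated and TGFβ means. Epcam fell by 1.10 (adjusted p = 0.0094) and Cdh1 fell by 1.25 (adjusted p = 0.017). Cdh1 no longer passed when untreated replicate 1 was left out (-1.24, adjusted p = 0.057). Of the fibroblast and pericyte markers 2 of 4 had the means of both groups below background, and Pdgfrb rose by 1.01 (adjusted p = 0.0011); the summed level was 495.4 and 510.9 in untreated arrays and 674.2 and 823.2 after TGFβ. By the same criterion 3 of 5 leukocyte, 3 of 4 endothelial, 2 of 3 adipocyte and 0 of 5 neuron and glia markers were below it, although Tubb3 (5.70) and Gfap (5.95) were below it as untreated means. Leukocyte markers summed to 695.5 and 1030 untreated and to 422.6 and 562.3 after TGFβ, a sum in which Cd68 differed by -1.29 (adjusted p = 0.052). Cd68 passed with replicate 2 of either group left out (-1.67, adjusted p = 0.025 for untreated, and -1.65, adjusted p = 0.031 for TGFβ). Summed levels were 180.1 to 181.4 against 188 to 196.3 for endothelial markers and 183.1 to 189.3 against 202.3 to 233.3 for adipocyte markers. For neuron and glia markers they were 576.5 to 582 against 521.7 to 527.8. Of these markers Mbp fell by 0.39 (adjusted p = 0.023) and passed in no fit on 3 arrays (-0.36 to -0.42, adjusted p of 0.063 to 0.13). Tubb3 differed by 0.39 (adjusted p = 0.16) and passed with TGFβ replicate 2 left out (0.57, adjusted p = 0.044). The part of these shifts in the results was not tested, and fewer cells of a type and less RNA per cell cannot be told apart in bulk RNA.

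TGFβ-treated cells had more RNA for the semaphorin Sema4f and the plexins Plxna4 and Plxnd1, and less for the secreted semaphorin Sema3c. Sema4f was 4.91-fold higher, Plxna4 4.43-fold higher and Plxnd1 3.61-fold higher, while Sema3c was 3.94-fold lower. The untreated mean of Plxnd1 (6.91) and the TGFβ mean of Sema3c (6.75) were not far above the background reference of 5.991. Smaller falls were seen in Sema4d, Sema3f, Sema3a, Sema6a, Plxna2, Plxnb1, Sema3e, Nrp2 and Sema4b, and smaller rises in Sema6d, Sema7a, Plxna3 and Sema4a. Of the 31 genes 7 rose, 10 fell and 14 did not pass at an adjusted p under 0.05, in limma with Benjamini-Hochberg adjustment over all genes. Over all genes tested 13.6% passed, 6.49% higher and 7.15% lower. The 17 called members are 54.8% of the family, but the family was proposed with results of these data in view, so its share is given as a description only. Among genes with a mean at or above the background reference 19.2% passed. The median difference was -0.075 over the members and 0.0097 over all genes, and the median size of a difference was 0.41 against 0.10. The groups did not overlap in 22 members, with the TGFβ arrays above in 11 and below in 11, nor in 52.6% of all genes. The number of members that fell was 4 without untreated replicate 1, 6 without untreated replicate 2 and 6 without TGFβ replicate 1, and the number that rose was 4 without TGFβ replicate 1.

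**Figure D1:**
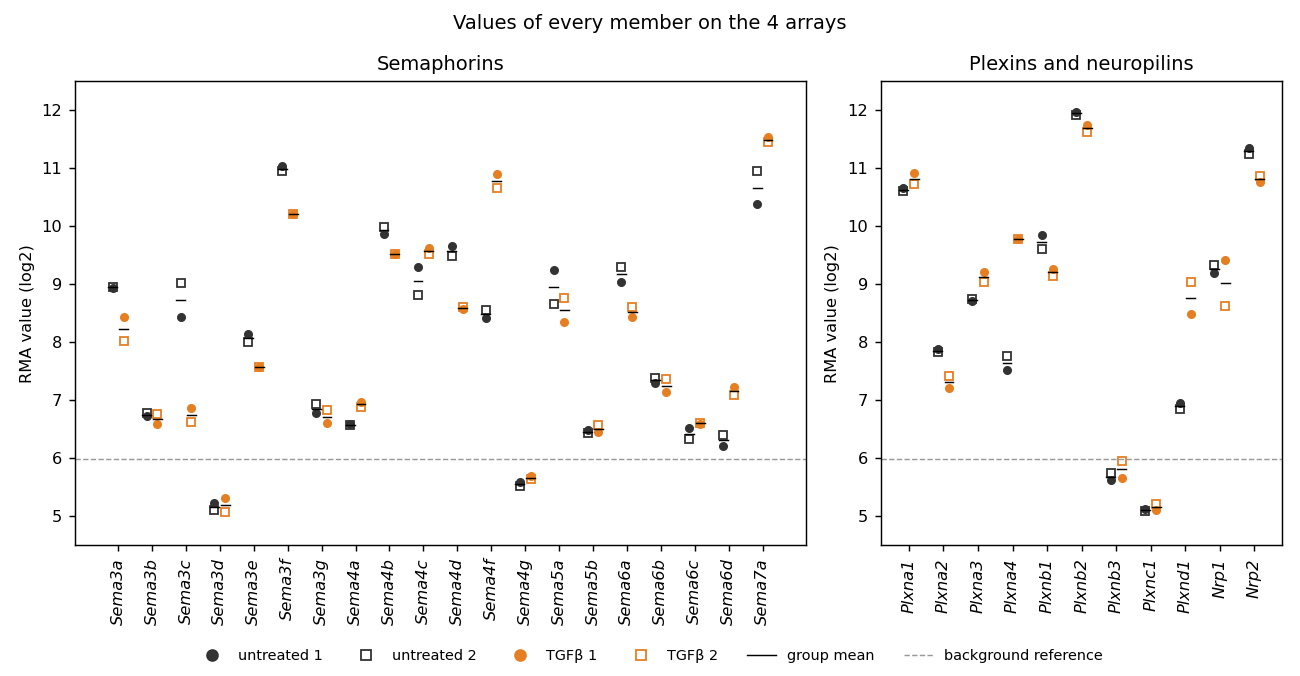
RMA log2 value (vertical axis) of each of the 31 genes on each array, untreated in dark and TGFβ in orange, replicate 1 filled and replicate 2 open, with group means as short lines and the background reference of 5.991 dashed. Sema4f, Plxna4 and Plxnd1 show both TGFβ arrays well above both untreated arrays, Sema3c shows the opposite, and Sema3d, Sema4g, Plxnb3 and Plxnc1 lie under the dashed line.

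**Figure D2:**
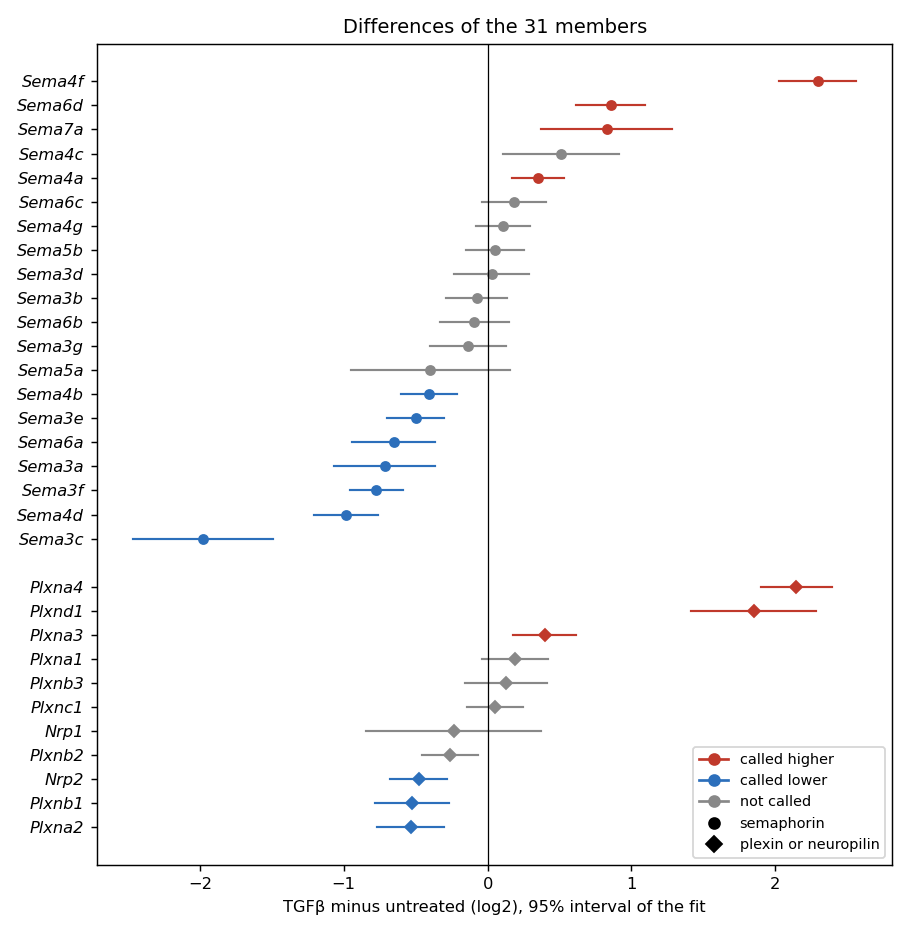
Difference between TGFβ and untreated means (horizontal axis, log2) with the 95% interval of the fit, for semaphorins (circles) and for plexins and neuropilins (diamonds), coloured by call. Differences run from -1.98 for Sema3c to 2.30 for Sema4f, and both sets hold called genes on both sides of 0.

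The bases just upstream of the start site are shown for 3 of the genes with the largest differences, Sema4f and Plxnd1, which rose, and Sema3c, which fell, since the members moved in opposite directions. Each run is the 250 bases before the RefSeq start site on build GRCm38.p6, written 5′ to 3′ on the gene's strand. Capitals mark matches to motifs fixed for the search on both strands. These were CAGGTG or CACCTG, the E2-box read by Zeb and Snail repressors, CAGAC or GTCTG, the Smad box, and GGAATG or CATTCC, the site of TEAD factors.
Sema4f, chr6:82939770-82940019, minus strand: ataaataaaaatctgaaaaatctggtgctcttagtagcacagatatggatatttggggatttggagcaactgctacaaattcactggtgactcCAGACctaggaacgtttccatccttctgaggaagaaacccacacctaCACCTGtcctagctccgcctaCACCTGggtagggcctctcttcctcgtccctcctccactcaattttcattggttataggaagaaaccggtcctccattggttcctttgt
Plxnd1, chr6:115995006-115995255, minus strand: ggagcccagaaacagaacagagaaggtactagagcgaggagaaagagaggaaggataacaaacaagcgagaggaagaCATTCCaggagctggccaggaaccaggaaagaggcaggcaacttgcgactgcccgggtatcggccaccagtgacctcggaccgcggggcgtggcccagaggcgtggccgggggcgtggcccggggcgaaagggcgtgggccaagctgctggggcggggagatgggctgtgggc
Sema3c, chr5:17574566-17574815, plus strand: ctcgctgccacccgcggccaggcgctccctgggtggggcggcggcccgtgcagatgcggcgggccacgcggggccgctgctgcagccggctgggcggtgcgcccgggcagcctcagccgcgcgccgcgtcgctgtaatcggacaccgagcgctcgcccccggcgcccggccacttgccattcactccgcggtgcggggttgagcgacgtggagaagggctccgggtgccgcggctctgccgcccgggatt
In the Sema4f window 2 E2-boxes began 110 and 89 bases before the start, with a Smad box beginning 157 bases before it. Plxnd1 held 1 TEAD site, beginning 173 bases before the start, and the Sema3c window held none of the 3 motifs. The Sema3c window was rich in G and C, at 78.4%, against 46% for Sema4f and 64.8% for Plxnd1. The median was 64% over the 37 windows of members and 52.4% over all windows.

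RefSeq windows were matched for 26 of the 31 genes, with 37 start sites in all. Plxna1, Plxna4, Sema3b, Sema3f and Sema6a were not matched. An E2-box was in 13.5% of the members' windows and in 17.2% of the 32851 windows of all genes. The Smad box was in 51.4% against 42.2% and the TEAD site in 8.11% against 12.6%. These shares were not adjusted for the higher G and C content of the members' windows. Counted by gene, 5 of the 26 members with a window held an E2-box, 14 a Smad box and 3 a TEAD site. Of the 14 called members with a window, 2 held an E2-box (Sema4f and Sema6d), 7 a Smad box and 3 a TEAD site (Plxnd1, Plxnb1 and Sema4a). Since 8 members have several windows, counts by gene are not comparable with the shares of windows. A match is only a run of letters, and no match says only that those letters are not in this window.

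The secreted class 3 semaphorins, ligands of neuropilins, showed falls and no rise. Among the 7 genes 4 fell, 0 rose and 3 did not pass, with a median difference of -0.50. Over all genes tested 7.15% were called lower and 6.49% higher. Counts by class, here and below, are of few listed genes and are descriptions only. Sema3c, which signals through neuropilins with A- and D-type plexins, read 8.44 and 9.02 in the untreated arrays and 6.87 and 6.63 after TGFβ. The arrays of both groups were well apart, although the untreated arrays differed from each other by more than the treated ones. Sema3c fell by 1.98 ± 0.20 (SE) on the log2 scale (limma adjusted p = 0.0029). Sema3f, a repellent that binds Nrp2, read 11.03 and 10.94 untreated and 10.22 and 10.21 with TGFβ. Its replicates were close and its groups did not overlap, and it fell by 0.77 ± 0.08 (SE, limma adjusted p = 0.0027). Sema3a, the Nrp1 ligand first known for collapsing growth cones, read 8.93 and 8.96 untreated and 8.44 and 8.02 with TGFβ. It fell by 0.72 ± 0.14 (SE, limma adjusted p = 0.027), with its treated arrays further apart than its untreated ones. Sema3a did not pass with untreated replicate 1 left out (-0.73, adjusted p = 0.084) nor with untreated replicate 2 left out (-0.70, adjusted p = 0.087).

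Sema3e, which binds Plxnd1 without needing a neuropilin, read 8.14 and 8.01 untreated and 7.58 and 7.57 after TGFβ, and fell by 0.50 ± 0.08 (SE, limma adjusted p = 0.014). Its groups did not overlap, but Sema3e did not pass once untreated replicate 1 was omitted (-0.43, adjusted p = 0.078). The other class 3 members did not pass. Sema3b differed by -0.075 (95% interval -0.29 to 0.14) and Sema3g by -0.14 (95% interval -0.40 to 0.13), with overlapping arrays in both. Fits on 3 arrays gave Sema3g differences from -0.25, without TGFβ replicate 2, to -0.021, without TGFβ replicate 1. Sema3d differed by 0.028 (95% interval -0.24 to 0.29) and had both means below the background reference, so a change in it would be hard to detect. In the RefSeq order of protein-coding genes the class 3 genes Sema3d, Sema3a, Sema3e and Sema3c lie on chromosome 5 and Sema3d and Sema3a are direct neighbours, of which Sema3a fell and Sema3d was not above background. Sema3b and Sema3f share chromosome 9, where Sema3f fell and Sema3b did not pass.

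Class 4 semaphorins, which span the membrane, went both ways. Among the 6 genes 2 fell, 2 rose and 2 did not pass, with a median of 0.23. Sema4f read 8.41 and 8.55 in untreated arrays and 10.90 and 10.66 after TGFβ. This gap was many times the spread within either group, and Sema4f rose by 2.30 ± 0.11 (SE, limma adjusted p = 0.00038), the largest difference among the 31 genes. Sema4d, a Plxnb1 ligand that can be shed from the membrane, read 9.67 and 9.48 untreated and 8.57 and 8.60 treated. It fell by 0.99 ± 0.09 (SE, limma adjusted p = 0.0022), with no overlap between the groups. A second, dimmer Sema4d probe set read 6.94 and 6.998 untreated and 6.99 and 7.21 treated, a difference of 0.13 that did not pass (adjusted p = 0.50 over probe sets). The 2 probe sets did not show the same difference, and with their mean Sema4d fell by 0.43 (adjusted p = 0.024).

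Sema4b read 9.86 and 9.99 untreated and 9.53 and 9.51 with TGFβ, and fell by 0.41 ± 0.08 (SE, limma adjusted p = 0.026). It did not pass in any fit on 3 arrays. With untreated replicate 1 or 2 left out the differences were -0.47 (adjusted p = 0.062) and -0.34 (adjusted p = 0.13), and with TGFβ replicate 1 or 2 left out they were -0.41 (adjusted p = 0.080) and -0.40 (adjusted p = 0.075). Sema4a, known from immune cells and the retina, read 6.59 and 6.57 untreated and 6.96 and 6.89 treated, and rose by 0.35 ± 0.07 (SE, limma adjusted p = 0.033). It was not far above the background reference, and it too passed in no fit on 3 arrays. Leaving out untreated replicate 1 or 2 gave 0.36 (adjusted p = 0.13) and 0.34 (adjusted p = 0.15), and leaving out TGFβ replicate 1 or 2 gave 0.31 (adjusted p = 0.12) and 0.39 (adjusted p = 0.061). Sema4c, a Plxnb2 ligand, read 9.30 and 8.81 untreated and 9.62 and 9.52 treated. Its arrays did not overlap, but the difference of 0.51 (95% interval 0.11 to 0.92) did not pass over all genes (adjusted p = 0.11). Without untreated replicate 1 Sema4c passed, at 0.76 (adjusted p = 0.017), and without untreated replicate 2 it differed by 0.27. Sema4g had both means below background and differed by 0.11 (95% interval -0.080 to 0.30), or by 0.067 with untreated replicate 2 left out.

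Class 6 semaphorins are transmembrane ligands of A-type plexins, and 1 of 4 rose, 1 fell and 2 did not pass. Sema6d, a Plxna1 ligand, read 6.21 and 6.40 untreated and 7.23 and 7.10 with TGFβ, moving from just over background. It rose by 0.85 ± 0.10 (SE, limma adjusted p = 0.0046). Sema6a, a ligand of Plxna2 and Plxna4, read 9.04 and 9.30 untreated and 8.43 and 8.61 treated. Its groups did not overlap, and it fell by 0.65 ± 0.12 (SE, limma adjusted p = 0.020). Leaving out untreated replicate 2 ended the Sema6a call (-0.52, adjusted p = 0.065), and so did leaving out TGFβ replicate 1 (-0.57, adjusted p = 0.073). Sema6b differed by -0.091 (95% interval -0.33 to 0.15), and its 2 probe sets carry the same values on all arrays. Sema6c differed by 0.18 (95% interval -0.040 to 0.40), and by 0.28 and 0.087 with untreated replicates 1 and 2 left out.

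Sema7a, the lipid-anchored semaphorin that binds Plxnc1 and β1 integrins, read 10.38 and 10.95 untreated and 11.53 and 11.45 after TGFβ. The untreated arrays were far apart, and the treated ones lay above both. Sema7a rose by 0.83 ± 0.18 (SE, limma adjusted p = 0.038). Leaving out TGFβ replicate 1 (0.79, adjusted p = 0.12) or 2 (0.87, adjusted p = 0.086) ended the Sema7a call, and leaving out untreated replicate 1 gave a difference of 0.54 (adjusted p = 0.045). Neither class 5 member, whose proteins carry thrombospondin repeats beside the sema domain, passed. Sema5a read 9.24 and 8.65 untreated and 8.34 and 8.76 with TGFβ. These groups overlap, and Sema5a differed by -0.40 with an interval from -0.95 to 0.15. Its difference was -0.10 and -0.69 with untreated replicates 1 and 2 left out in turn, and -0.19 and -0.61 when the TGFβ arrays were. Sema5b differed by 0.050 (95% interval -0.15 to 0.25).

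Among A-type plexins, the signalling receptors that work with neuropilins and with class 6 ligands, 2 of 4 rose, 1 fell and 1 did not pass. Plxna4 read 7.52 and 7.76 in untreated arrays and 9.79 and 9.78 after TGFβ. Its groups stood far apart and the treated arrays were almost equal, and Plxna4 rose by 2.15 ± 0.10 (SE, limma adjusted p = 0.00037). Plxna3 read 8.71 and 8.75 untreated and 9.22 and 9.04 treated, and rose by 0.40 ± 0.09 (SE, limma adjusted p = 0.038). Leaving out untreated replicate 1 (0.38, adjusted p = 0.16) or 2 (0.42, adjusted p = 0.12) ended this call, as did leaving out TGFβ replicate 1 (0.31, adjusted p = 0.12) and a variance model with an intensity trend (adjusted p = 0.052). Plxna2, another A-type receptor, read 7.89 and 7.83 untreated and 7.22 and 7.43 treated, and fell by 0.53 ± 0.09 (SE, limma adjusted p = 0.019). Plxna2 did not pass with either untreated array left out (-0.51, adjusted p = 0.087 for replicate 1, and -0.56, adjusted p = 0.059 for replicate 2). It also did not pass when TGFβ replicate 1 was omitted (-0.43, adjusted p = 0.056). Plxna1 differed by 0.19 (95% interval -0.042 to 0.42) and did not pass, and it differed by 0.090 and 0.29 with TGFβ replicates 1 and 2 left out.

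Plxnd1, a receptor of Sema3e known from vessel patterning, read 6.96 and 6.86 untreated and 8.49 and 9.03 after TGFβ. The treated arrays were further apart than the untreated ones, and both were well above them. Plxnd1 rose by 1.85 ± 0.18 (SE, limma adjusted p = 0.0025). Of the B-type plexins, among which are receptors of class 4 ligands, 0 of 3 rose, 1 fell and 2 did not pass. Plxnb1 read 9.84 and 9.61 untreated and 9.26 and 9.15 treated, and fell by 0.52 ± 0.10 (SE, limma adjusted p = 0.027). Leaving out untreated replicate 1 (-0.41, adjusted p = 0.11) or either TGFβ array (-0.58, adjusted p = 0.057 for replicate 1, and -0.47, adjusted p = 0.086 for replicate 2) ended the Plxnb1 call. Plxnb2 read 11.97 and 11.92 untreated and 11.74 and 11.63 treated. These arrays did not overlap either, but the difference of -0.26 (95% interval -0.46 to -0.064) did not pass (adjusted p = 0.095). Plxnb3 and Plxnc1, the Sema7a receptor, had both means below background, with differences of 0.13 and 0.051.

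Nrp2, the co-receptor of Sema3f and Sema3c and of VEGF-C, read 11.34 and 11.25 untreated and 10.77 and 10.87 with TGFβ. Its groups did not overlap and it fell by 0.48 ± 0.08 (SE, limma adjusted p = 0.016). Nrp2 did not pass with untreated replicate 1 left out (-0.43, adjusted p = 0.089) nor with TGFβ replicate 1 left out (-0.43, adjusted p = 0.063). Nrp1, the co-receptor of Sema3a and VEGF-A, read 9.19 and 9.33 untreated and 9.42 and 8.63 treated. The treated arrays lay on both sides of the untreated ones. Nrp1 differed by -0.24 with an interval from -0.84 to 0.37, so neither a fall nor a rise was resolved. It passed as a fall without TGFβ replicate 1 (-0.63, adjusted p = 0.028) and differed by 0.16 without TGFβ replicate 2.

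**Figure D3:**
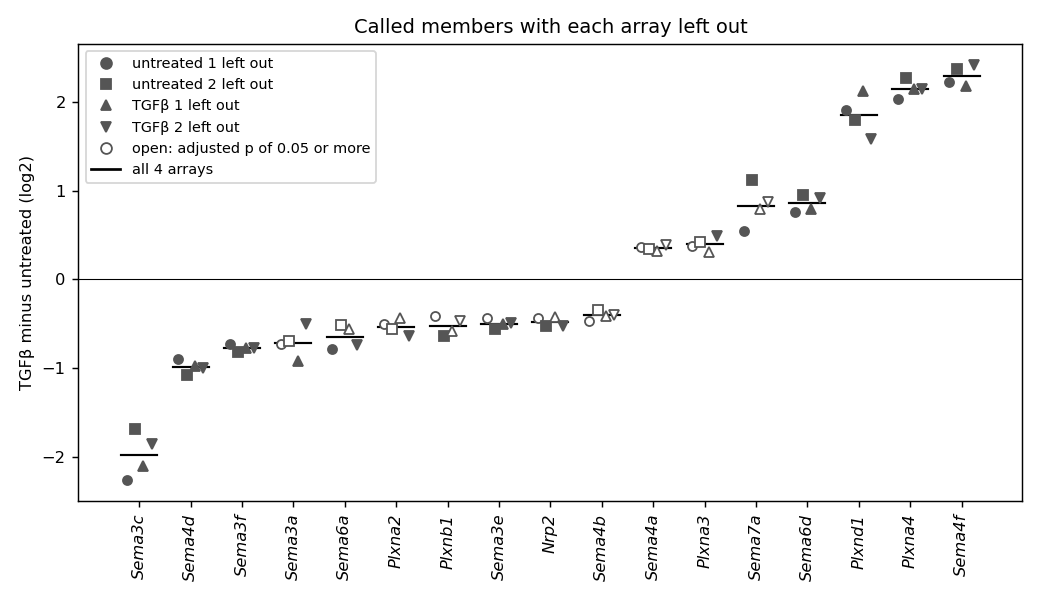
Difference between TGFβ and untreated means (vertical axis, log2) of the 17 called genes with all arrays (lines) and with each array left out (symbols), open where the limma adjusted p was 0.05 or more. All 4 symbols are filled for Sema3c, Sema4d, Sema3f, Sema6d, Plxnd1, Plxna4 and Sema4f, and all 4 are open for Sema4b and Sema4a.

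Ligands and receptors were called at close shares. Of 20 semaphorins 4 rose, 7 fell and 9 did not pass (55% called), and of 11 plexins and neuropilins 3 rose, 3 fell and 5 did not pass (54.5% called). The median difference was -0.083 for ligands, from -1.98 to 2.30, and 0.051 for receptors, from -0.53 to 2.15. The ligand median was -0.0073 without TGFβ replicate 1 and -0.18 without TGFβ replicate 2, and the receptor median was -0.0032 without TGFβ replicate 2 and -0.054 without the dimmest 25% of genes, so the receptor sign is not settled. Ligands of one receptor did not all share its direction. Plxnd1 rose by 1.85 while Sema3e and Sema3c, which are among its ligands, fell by 0.50 and by 1.98. Sema4d fell by 0.99 on its brighter probe set and its receptor Plxnb1 fell by 0.52. Sema3f and Sema3c fell by 0.77 and by 1.98, and their co-receptor Nrp2 fell by 0.48. Sema6a fell by 0.65, as did its receptor Plxna2, by 0.53, whereas Plxna4, the other, rose by 2.15. Sema7a rose by 0.83, its plexin Plxnc1 was below background in both groups, and Itgb1, the integrin subunit it can also bind, rose by 0.81 (limma adjusted p = 0.0024). Sema3a fell by 0.72 while its co-receptor Nrp1 was not resolved in either direction. Sema6d rose by 0.85 and its receptor Plxna1 did not pass, and neither Sema4c nor its receptor Plxnb2 passed with all arrays. Several calls in these pairs were lost with an array left out, as given gene by gene above. The pairs do not cover every known partner of these genes. For example, Sema4a, which rose by 0.35, and Sema5a, which did not pass, are not among them.

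**Figure D4:**
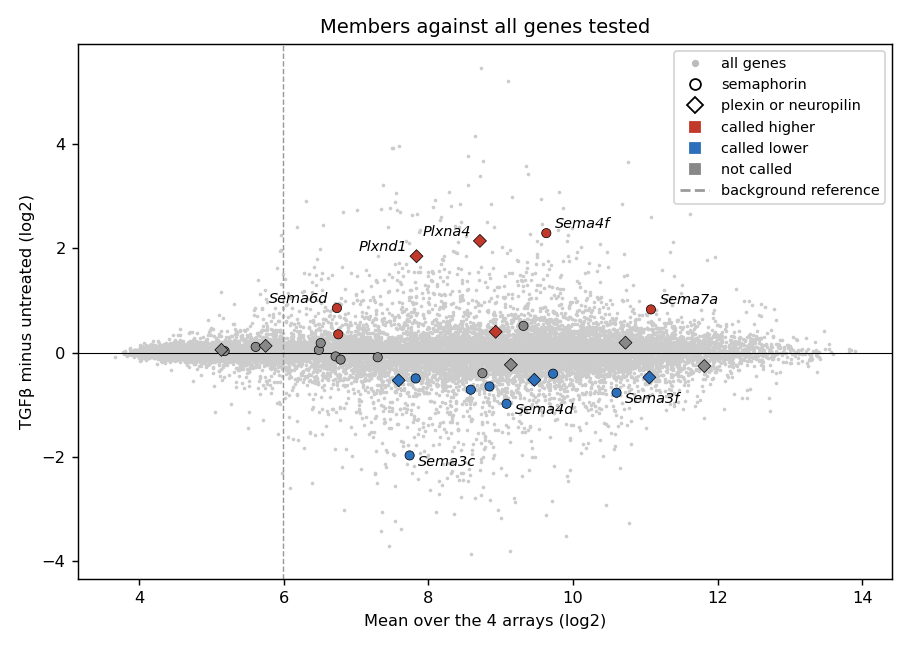
Difference between TGFβ and untreated means (vertical axis, log2) against the mean over the 4 arrays (horizontal axis, log2) for all 19938 genes in grey, with the semaphorins as circles and plexins and neuropilins as diamonds, coloured by call, and the background reference dashed. Sema4f, Plxna4, Plxnd1 and Sema3c lie outside the dense band around 0, where most uncalled members lie.

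Other genes of the pathway were taken from a list of 57, of which 56 were measured. Of these 10 rose, 5 fell and 41 did not pass, with a median difference of 0.010. So 26.8% were called, against 13.6% of all genes and 19.2% of genes with a mean at or above the background reference. This list too was chosen with results of these data known, so its shares are a description only. Without untreated replicate 2 the number that fell was 2. Among downstream effectors Fyn, a Src-family kinase that acts in Sema3a signalling, read 7.19 and 7.33 untreated and 8.87 and 8.80 treated and rose by 1.57 (adjusted p = 0.00052). Mical2, of the MICAL family of actin-oxidising enzymes, rose by 1.37 (adjusted p = 0.00059), while the CRMP gene Dpysl2 differed by -0.18 (adjusted p = 0.17). Of 8 CRMP and MICAL genes 2 rose and 0 fell (25% called), and of 23 effectors of plexins 4 rose and 1 fell (21.7% called). The small GTPases of the R-Ras group, on which plexins act, did not move one way. Rras2 fell by 0.53 (adjusted p = 0.013), Mras rose by 0.70 (adjusted p = 0.0053) and Rras differed by 0.20 (adjusted p = 0.30), or by 0.33 and 0.079 with untreated replicates 1 and 2 left out. Rras2 did not pass with untreated replicate 2 left out (-0.47, adjusted p = 0.064).

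Neuropilins also bind VEGF, and of 5 VEGF family genes 2 rose and 0 fell (40% called). Vegfa, the main growth factor of vessels, rose by 1.48 (adjusted p = 0.00086), and Vegfc, which acts on lymphatic vessels and binds Nrp2, rose by 1.09 (adjusted p = 0.0023). Class 3 semaphorins are cut by furin-type proteases, and of 6 protease genes 1 rose and 2 fell (50% called). Furin rose by 1.14 (adjusted p = 0.0039), whereas its relative Pcsk6 fell by 1.69 (adjusted p = 0.0014) and Adam17, a sheddase of membrane proteins, fell by 0.62 (adjusted p = 0.0068). Of 14 co-receptors 1 rose and 2 fell (21.4% called). Over all genes 13.6% were called, and 19.2% of those with a mean at or above the background reference. The shares of these short lists are a description only. Met, a receptor kinase that associates with B-type plexins, fell by 0.57 (adjusted p = 0.035). Met did not pass with untreated replicate 2 left out (-0.46, adjusted p = 0.13) nor with TGFβ replicate 2 left out (-0.44, adjusted p = 0.096).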

How the data were processed

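RNA of 2 untreated and 2 TGFβ-treated Py2T samples was measured on Affymetrix arrays. Per the labels' protocols, the Ambion WT Expression kit was used for amplification, from 100 ng of RNA. The deposited values are log2 values per probe set, made by the authors with RMA in the R package oligo, per the submitters' processing notes; the versions, annotation and build behind them were not given in the sources used here. Quantile normalization within RMA removes any shift shared by most genes. Probe affinities differ, so levels of the members were not ranked against each other. The background reference, the filters on dim genes and the summed marker levels do set values of different genes together. They are therefore rough guides only. Precision is limited by the number of arrays.

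Of 35556 probe sets 21789 carry 1 gene symbol, 1621 several and 12146 none, and those with several or none were not used. All 31 members matched the RefSeq table of GRCm38.p6 by Entrez identifier. The comparison was fitted in limma (3.58.1, R 4.3.3) with moderated variances (degrees of freedom 2 residual, 3.77 prior) and no further filter or normalization. P-values are two-sided and Benjamini-Hochberg adjusted over 19938 genes, and a gene was called at adjusted p under 0.05. With 2 arrays a group, exact permutation cannot go below a two-sided p of 0.333. Errors are standard errors of the fit. Fits on 3 arrays assume that the lone array varies as the other group does. The script was tested on simulated data under a pair of noise models. Most simulated log2 changes of 0.5 were missed under both, so small differences that did not pass say little. The harsher model was run first and recovered fewer log2 changes of 2 than the limit set for the check. The other model then replaced it as the standard, met that limit and missed a few changes of 2.

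The members and lists were chosen with earlier results of these data known. Named were all 31 members, the called pathway genes with the 4 largest rises and 4 largest falls, and Met, Vegfa, Itgb1, Dpysl2, Krt8, Krt18, Epcam and Cdh1. Pdgfrb, Cd68, Mbp, Tubb3, Gfap, Vegfc, Mras and Rras were named after their values were seen. Replicate numbers were not taken to pair the samples. Alternatives were other scalings, filters on dim genes, the mean of probe sets, another variance model, a replicate block, size thresholds and leaving out each array.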

Additional observations from a re-analysis of the deposited data

How the results depend on the processing

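Of the 17 called members 7 (Sema3c, Sema3f, Sema4d, Sema4f, Sema6d, Plxna4 and Plxnd1) kept their call and direction under each scaling, filter, variance and replicate alternative that was run on them. Of these only Sema4d had more than 1 probe set, so the mean of probe sets could not change the rest. With that mean Sema4d fell by 0.43 instead of 0.99, and its second probe set alone differed by 0.13. Sema6d was too dim to be tested without the dimmer 50% of genes. The other 10 called members lost their call under at least 1 of these alternatives. With at least a 2-fold difference required, 3 members were called higher and 1 lower, and testing with limma's treat for more than 0.5 on the log2 scale gave 3 and 2. Leaving out 1 array gave 4 to 6 members called higher, 4 to 8 called lower and 2 to 5 pathway genes called lower. The ligand median ranged from -0.18 to -0.0073 with 1 array left out. It was -0.11 without the dimmest 25% of genes and -0.50 without the dimmer 50%, when fewer members are tested, and the receptor median was then -0.24 without the dimmer 50%. With the replicate number as a block, 4 members were called higher and 6 lower, and 7 and 3 pathway genes. Same-numbered arrays deviated from their group means with a correlation of -0.213 across genes. The numbers gave no sign of pairing, but 2 pairs are too few to settle it. A crossed pairing, added after seeing the data, called 8 members higher and 11 lower, and 10 and 5 pathway genes. Over all genes the crossed pairing called 3640, against 1624 with the numbered block and 2720 with no block. With 1 array left out, 7 uncalled members changed sign. Their differences ranged from -0.16 to 0.0065 for Sema3b, from -0.096 to 0.15 for Sema3d (also -0.028 without untreated replicate 2), from -0.014 to 0.11 for Sema5b, from -0.20 to 0.016 for Sema6b, from -0.017 to 0.27 for Plxnb3, from -0.0032 to 0.11 for Plxnc1 and from -0.63 to 0.16 for Nrp1. The cause of these changes was not tested. Signal over background limits Sema3d, Sema4g, Plxnb3 and Plxnc1.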
